A study of Mus musculus with 10 samples.

Results

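The genes described here are imprinted genes and the genes that overlap them on the same or the other strand, at the Mest, Dlk1-Dio3, Igf2-H19, Igf2r-Airn, Kcnq1, Gnas, Peg3, Trappc9-Peg13, Commd1-Zrsr1, Herc3-Nap1l5, Prader-Willi/Angelman, Peg10-Sgce, H13-Mcts2 and Blcap-Nnat loci, with Grb10, Plagl1 and Impact. The rule names the genes and uses no values, though the list was drawn up with earlier results of these data known. Of 42 listed genes, 37 had a row among the 38293 gene identifiers of the count files. Counts of Dio3os, Kcnq1ot1, Peg13, Snhg14 and Snrpn were not analysed here. RNA-seq was done on mouse embryonic fibroblasts (MEF) and whole lung with and without CBL0137, a curaxin that binds DNA and disrupts nucleosomes. Wild-type MEF came from C57BL/6J mice and were untreated (n = 2) or kept in 1 µM CBL0137 for 24 hr (n = 2). MEF of Trp53tm1Tyj (p53-/-) mice, called Trp53-/- MEF below, had 1 library without and 1 with the same treatment. Lungs of wild-type NIH Swiss mice, 7 weeks old, were collected 24 hr after 1 intravenous dose of vehicle (n = 2) or of 60 mg/kg CBL0137 (n = 2), with 2 mice per group. Labels for the sex of the lung mice conflict, the sex of the MEF is not given, and untreated MEF are not stated to have received solvent. MEF and lung differ in strain, age, dose form and tissue at once, so that these cannot be told apart.

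At an imprinted locus, expression depends on the parent from whom the allele was inherited. A differentially methylated region, methylated in only one germline, controls the cluster, and a long non-coding RNA is often transcribed through it, in some clusters against the direction of a protein-coding gene. Many imprinted genes regulate fetal growth, and some of them are highly transcribed in embryonic fibroblasts and decline after birth in lung. Mest (a hydrolase-fold protein) is expressed from the paternal allele and its end meets that of Copg2, a coatomer subunit gene on the other strand. In the Dlk1-Dio3 cluster, Rtl1 (a retrotransposon-derived protein needed in the placenta) is paternal, and the maternal allele produces a transcript across it in the other direction that carries microRNAs.

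The libraries were made with a stranded kit (TruSeq Stranded Total RNA with Ribo-Zero), and which strand the counting used is not given in the sources used here. Between 0.789% and 1.156% of the 1458258 to 51320983 reads of a file were counted on genes. This left 16579 gene counts in the second vehicle lung library, and up to 538717 in treated Trp53-/- MEF. A level is given as the count listed under an identifier per 1000000 gene counts of its library (CPM), so that 1 count is 60.3 CPM in that shallowest library, and it is not read as expression of the gene that the identifier names. Trp53 itself was listed at 0 in all 4 wild-type MEF libraries, in untreated Trp53-/- MEF and in 3 lung libraries, at 1 count in 1 treated lung and at 5 counts (9.28 CPM) in the library labelled treated Trp53-/- MEF. It thus gave no check of the genotype labels, and most of its counts lay in a library labelled as lacking it. Fibroblast markers summed to 94.7 to 625.1 CPM in MEF and 24.9 to 181 CPM in lung (10 of 10 with a row), and lung epithelial markers to 0 to 23.2 CPM in MEF and 436.4 to 784.1 CPM in lung (10 of 10). Col1a1, Col1a2 and Col3a1 held 97, 75 and 96 of the 325 fibroblast counts, and the 181 CPM in lung rests on 3 counts. The fibroblast ranges of MEF and lung overlap through that value. Dcn and Lum had 1 count each, that of Lum in lung. Leukocyte markers summed to 240.6 to 451.1 CPM in MEF and 176.7 to 301.6 CPM in lung, which overlap. Of their 698 counts, 646 were under 1 gene, Csf1r, while Lyz2 had 3 counts in MEF and 26 in lung. Endothelial markers summed to 29 to 193.2 CPM in MEF and 143.5 to 542.9 CPM in lung, ranges that overlap. Vwf had 97 counts in MEF and 73 in lung, while Pecam1 had 0 and 13. Erythroid markers summed to 27.8 to 94.8 CPM in MEF and 44.2 to 181 CPM in lung, which also overlap. Alas2 had 62 counts in MEF and 26 in lung, while Hba-a1 had 0 and 20.

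Most member counts lay in genes that face another gene on the other strand. The 17 genes with exon sequence opposite an annotated exon held 94.9% of all member counts on 50.13% of the exon bases, with 29.87 counts per kb of exon over all libraries. Without Copg2 and Rtl1 the other 15 had 12.36 counts per kb, against 1.614 per kb in the 20 genes with no exon opposite an exon. This is a description across genes, with no test. Of the 37 genes, 18 had at least 10 counts in all libraries together, 15 had 1 to 9, and Mirg, Dio3, Usp29 and Magel2 had 0. The 15 were Rian, Dlk1, Igf2os, Airn, Kcnq1, Phlda2, Zim1, Trappc9, Herc3, Ndn, Peg10, Sgce, Mcts2, Blcap and Impact.

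The counts of 9 pairs on opposite strands, over all libraries, were divided as follows. Copg2 held 91.41% of the 1875 counts of Copg2 and Mest (95% Wilson interval 90.06% to 92.6%, counting error only, as for all intervals here). Gm20721, annotated opposite the 3′ part of Gnas (the stimulatory G-protein alpha subunit locus), held 99.56% of its pair's 55418 counts. Gm26906, annotated opposite the last exon of Meg3 (a maternal long non-coding RNA), held 96.67% of 330. Nnat, which encodes a small membrane protein and lies inside Blcap, held 98.34% of 301. Nap1l5, a retrogene for a nucleosome assembly protein-like protein inside Herc3, held 94.62% of 93. Igf2r, the receptor that clears IGF2, held 98.11% of its 53 counts with Airn, the long RNA whose transcription silences it. Zrsr1, a retrogene within Commd1, held 63.99% of 311. Igf2 held 61.9% of its 21 counts with Igf2os, and the interval of 40.88% to 79.25% includes an even split. H13, a signal peptide peptidase gene, held 33.61% of the 244 counts it had with Gm26841. Treated Trp53-/- MEF decided this value, with 59.09% of 88 counts under H13, and without that library the share was 19.2% of 156. Where exons of a pair overlap, whether reads of both genes can be told apart depends on the strand setting, which is not given. A share is therefore not read as which gene of the pair was transcribed more. Whether the counts are of the strand opposite to the named gene was not tested.

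Copg2 (ENSMUSG00000025607, GRCm38 chr6:30747554-30896794, minus strand) and Mest (ENSMUSG00000051855, chr6:30723547-30748465, plus strand) share 912 bases, all of them exon on both strands. These make up 17.81% of Copg2 exon sequence and 23.12% of that of Mest. Rtl1 (ENSMUSG00000085925, chr12:109589193-109600330, minus strand) has 6 microRNA hairpins of the plus strand inside its exons (Mir431 to Mir136, chr12:109590447-109595388), which cover 516 bases or 8.116% of them. Gm26906 (ENSMUSG00000097698, chr12:109568628-109571723, minus strand) lies inside Meg3 (ENSMUSG00000021268, chr12:109541001-109571726, plus strand), with 1228 bases exon against exon.

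**Figure D1:**
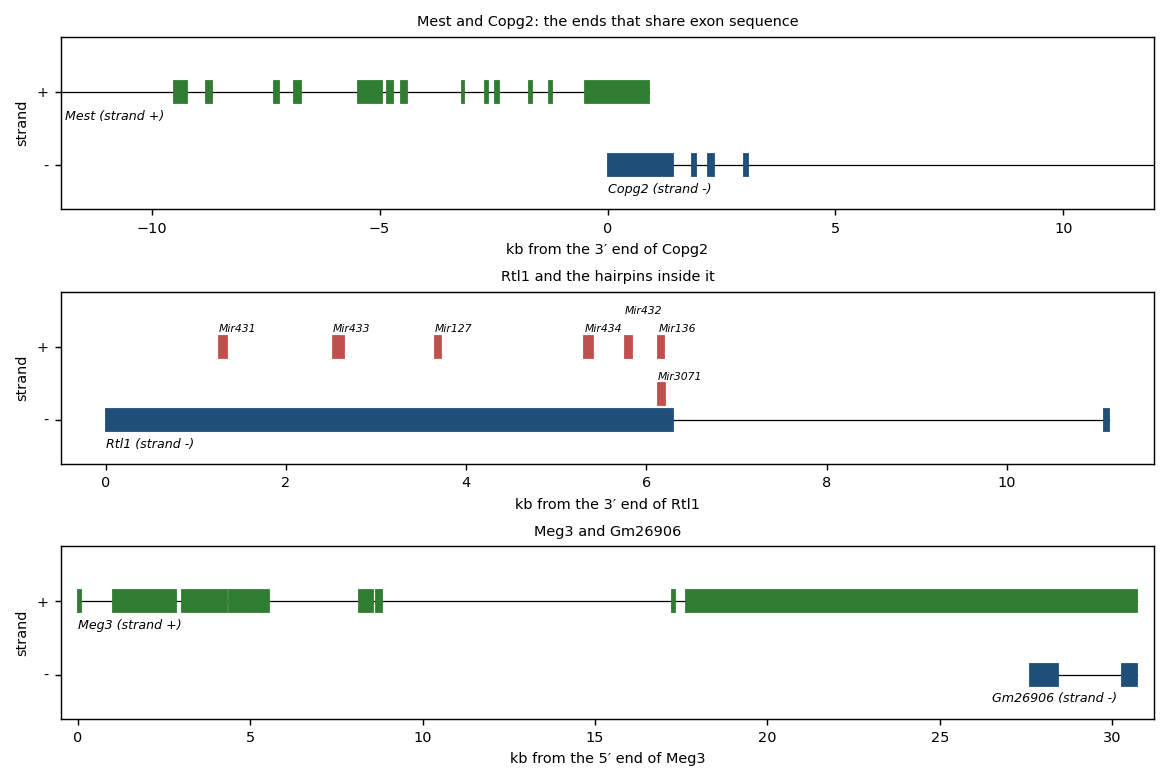
Exons (boxes) of Mest and Copg2, of Rtl1 with its microRNA hairpins, and of Meg3 and Gm26906, drawn to scale in kb from the 3′ end of Copg2, the 3′ end of Rtl1 and the 5′ end of Meg3, with the plus strand above the minus strand. The last exons of Mest and Copg2 face each other, 6 hairpins (red) lie on the strand opposite Rtl1 and 1 on its own strand, and Gm26906 faces the last exon of Meg3.

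The mature microRNAs of the 6 hairpins are shown because they lie on the strand opposite the member with the second highest count. They are from RefSeq (GRCm38.p6), written 5′ to 3′, with the seed (bases 2 to 8) in capitals.
miR-431-5p: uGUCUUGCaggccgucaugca
miR-431-3p: cAGGUCGUcuugcagggcuucu
miR-433-5p: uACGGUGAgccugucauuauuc
miR-433-3p: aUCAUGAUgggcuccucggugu
miR-127-5p: cUGAAGCUcagagggcucugau
miR-127-3p: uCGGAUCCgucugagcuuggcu
miR-434-5p: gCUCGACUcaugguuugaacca
miR-434-3p: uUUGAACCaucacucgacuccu
miR-432: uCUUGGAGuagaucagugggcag
miR-136-5p: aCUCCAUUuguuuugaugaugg
miR-136-3p: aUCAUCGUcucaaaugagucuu
The 11 mature arms had 11 different seeds, so none formed a seed family with another. Hairpin identifiers are counted on the annotated hairpin only, and the 5 that had a row were at 0 in all 10 libraries.

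The promoters of Mest and Copg2 are shown because Copg2 was the member with the most counts and Mest faces it. Each window runs from 250 bases before to 50 after the annotated start (RefSeq, GRCm38.p6), written 5′ to 3′ in the direction of the gene. Capitals mark the hexamer TGCCGC in either orientation, the core of the methylated site bound by ZFP57, a zinc-finger protein that maintains imprints.
Mest, chr6:30737803-30738102, plus strand: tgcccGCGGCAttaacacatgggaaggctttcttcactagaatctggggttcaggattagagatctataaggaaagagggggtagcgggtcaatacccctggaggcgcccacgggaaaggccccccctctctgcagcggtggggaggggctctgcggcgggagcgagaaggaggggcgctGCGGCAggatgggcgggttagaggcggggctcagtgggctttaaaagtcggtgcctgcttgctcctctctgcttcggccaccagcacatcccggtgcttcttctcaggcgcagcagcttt
Copg2, chr6:30896745-30897044, minus strand: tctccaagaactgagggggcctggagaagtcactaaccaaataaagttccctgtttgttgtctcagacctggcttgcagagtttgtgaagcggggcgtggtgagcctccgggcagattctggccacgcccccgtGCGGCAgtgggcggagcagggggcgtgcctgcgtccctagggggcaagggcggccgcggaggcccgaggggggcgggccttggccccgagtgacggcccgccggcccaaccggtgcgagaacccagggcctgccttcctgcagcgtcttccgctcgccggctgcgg
The hexamer occurred 2 times in the Mest window shown and 1 time in that of Copg2, while a window at another annotated Mest start, chr6:30733256-30733555, held 0. It was present in 13 of 46 windows of the listed genes (28.26%, 12 of the 32 genes with a window), against 11.61% of 32851 windows of all genes. Dio3os, Kcnq1ot1, Snhg14 and Snrpn are among these genes. Windows that overlap, as at Mest, or coincide, as for Snhg14 and Snrpn, were each counted. A window of these genes held a median of 16.5 CpG, against 7 over all windows. These letters do not show that the protein binds there, and methylation was not measured in these libraries.

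The 2 highest members, Copg2 and Rtl1, fell after CBL0137 in wild-type MEF. Counts listed under Copg2 were 2975 and 2928 CPM in the untreated libraries and 251.5 and 156.8 CPM in the treated ones. Both treated libraries were far below both untreated ones, and the log2 fold change was -4.02 ± 0.26 (SE, edgeR quasi-likelihood test, adjusted p = 0.0021). Counts listed under Rtl1 were 1013 and 1037 CPM untreated and 133.2 and 134.9 CPM treated. That difference was -3.01 ± 0.19 on the log2 scale (adjusted p = 0.0021 in the same edgeR test). Together, the 37 genes went from 4922 and 4871 CPM to 1228 and 1105 CPM, of which Copg2 was 60.44% and 60.11% before treatment and 20.48% and 14.19% after it.

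Of 37 members, 7 passed the filter on low counts in wild-type MEF, and 2 were called, both lower; over all genes 149 of 1757 (8.48%) were called, and 4.27% of all genes were called lower. The median log2 fold change of the 7 was -0.87, and that of all genes tested 0.01. H19, among the 7, passed the filter through untreated MEF, where it is high, so nothing is drawn from this median. Copg2 and Rtl1 kept their call under every other tool and scaling tried, and the calls rested on both untreated libraries. Without untreated replicate 1 or replicate 2, 0 members were called and the adjusted p of Copg2 was 0.0563 or 0.11 and that of Rtl1 0.0563 or 0.129, over a range of 7.8e-18 to 0.11 for Copg2 and 2.8e-09 to 0.129 for Rtl1 over all alternatives; all-gene calls then fell to 2 or 0. The differences stayed as large without either library, at -4.08 and -4.03 for Copg2 and -3.12 and -3.01 for Rtl1. The fibroblast markers moved in the same direction, from 401 and 625.1 CPM untreated to 162.8 and 134.9 CPM treated, and their part in the result was not tested. In bulk RNA, fewer cells of a type and less RNA per cell cannot be told apart.

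H19, a maternal long non-coding RNA of the Igf2 locus, went from 138.5 and 114.6 CPM without CBL0137 to 44.39 and 7.29 CPM with it in wild-type MEF. It passed the filter through the untreated libraries, where it is high, so the filter bears on its direction. The groups did not overlap, but the treated values rest on 3 and 2 counts, and the log2 difference of -3.05 ± 0.70 missed the threshold (edgeR adjusted p = 0.0564, range over the alternatives 0.0051 to 0.399), while it passed under 4 of 10 alternatives, among them the fit without treated replicate 1 (log2 difference -4.11). Without treated replicate 2 the H19 difference was -1.62 (edgeR adjusted p = 0.23). Its neighbour Igf2, a fetal growth factor, had 13 counts in all libraries, 2 and 9 of them in untreated wild-type MEF.

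Gm26906, opposite Meg3, was at 408.3 and 401.1 CPM untreated and 177.5 and 229.7 CPM treated. The log2 difference was -1.03 ± 0.24 and missed the threshold (edgeR adjusted p = 0.0561, range over the alternatives 0.0541 to 0.453). Rtl1 and Gm26906 lie on the same strand of the same cluster, and per kb of exon they stood at 161.2 and 329.6 CPM on average in untreated wild-type MEF. Treated means were 21.08 CPM per kb for Rtl1 and 165.8 CPM per kb for Gm26906. Meg3 itself had 11 counts in all libraries, 5 and 1 of them in untreated wild-type MEF, and Rian had 4.

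Nnat was listed at 102.1 and 130.2 CPM untreated and 207.1 and 266.1 CPM treated in wild-type MEF. The treated libraries were above the untreated ones, with a log2 difference of 0.96 ± 0.33 that missed the threshold (edgeR adjusted p = 0.131). Zrsr1, a splicing factor-like retrogene, went from 72.91 and 62.51 CPM to 118.4 and 113 CPM. Its log2 difference was 0.68 ± 0.37 (edgeR adjusted p = 0.293). Plagl1, a zinc-finger growth regulator, had 131.2 and 140.6 CPM untreated against 118.4 and 61.98 CPM treated (log2 difference -0.87 ± 0.43, edgeR adjusted p = 0.254). Gnas had 145.8 and 156.3 CPM against 88.77 and 98.43 CPM (log2 difference -0.75 ± 0.33, edgeR adjusted p = 0.205). On the other strand, Gm20721 had 4150 and 5654 counts untreated and 2464 and 9544 counts treated, with a log2 difference of 0.17 ± 0.14 after scaling to depth (edgeR adjusted p = 0.476). None of these 5 differences passed the test, which does not show that the levels were equal.

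**Figure D2:**
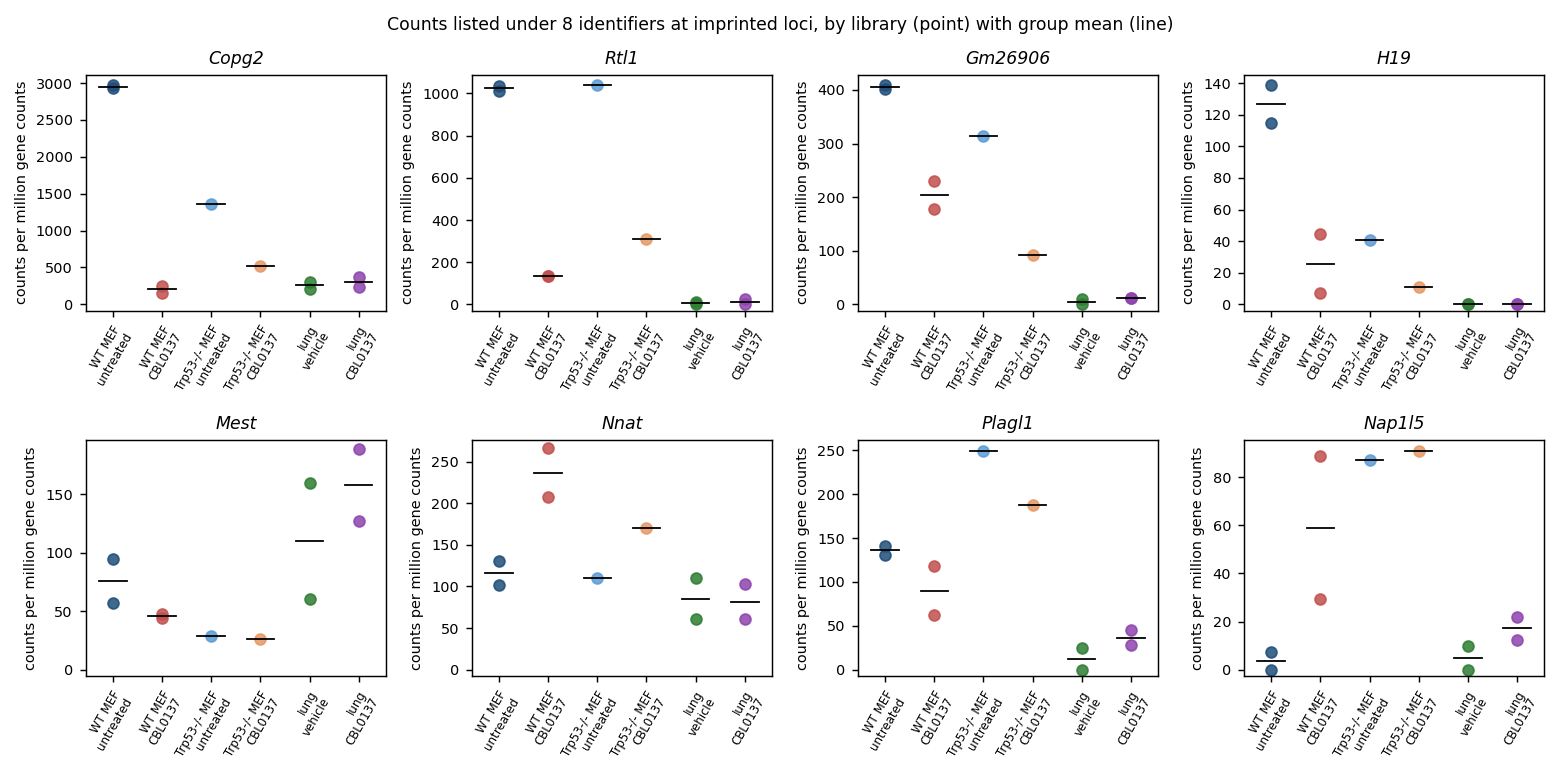
CPM (vertical axes, linear, from 0) of 8 identifiers in the 10 libraries (points) of 6 groups, with a line at each group's mean. Copg2, Rtl1, Gm26906 and H19 were highest in untreated wild-type or Trp53-/- MEF and at or near their lowest in lung, Nnat was highest in treated wild-type MEF, and Mest was highest in treated lung.

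In lung, no member passed the test after CBL0137. Copg2 was at 214.2 and 301.6 CPM in vehicle lung and 370.1 and 237.8 CPM in treated lung. The ranges overlapped, with a log2 difference of 0.51 ± 0.48 (edgeR adjusted p = 1). Mest was at 159.4 and 60.32 CPM in vehicle lung and 127 and 188.6 CPM in treated lung, with a log2 difference of 0.29 ± 0.53 (edgeR adjusted p = 1). Commd1, which encodes a COMM-domain protein of endosomal sorting and copper handling, had 109.6 and 60.32 CPM against 44.19 and 98.4 CPM, a log2 difference of -0.37 ± 0.64 (edgeR adjusted p = 1).

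Of the 6 members tested in lung, edgeR called 0, as it called 0 of 2377 genes (0%), and DESeq2 called 0 of the 6. An unadjusted p below 0.05 was found for 0 of the 6, against 3.11% of all genes. Calls over all genes depended on 1 library, with 113 of 2598 called without treated lung replicate 2 and 10 of 2832 without replicate 1, and 0 members called in either fit. Their log2 differences ran from -0.37 to 0.51, with a median of 0.14 beside 0.09 over all genes. The second vehicle library held 5 counts under Copg2 and 1 under Mest. H19 had 0 counts in all 4 lung libraries and Rtl1 had 2, 0, 0 and 6.

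**Figure D3:**
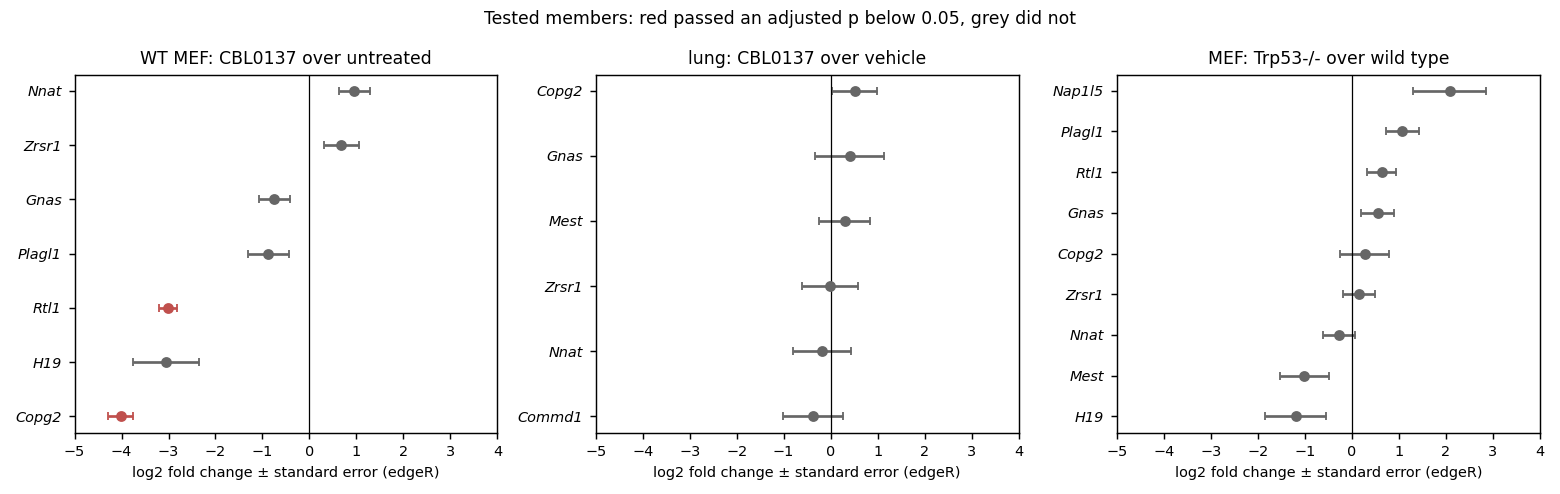
Log2 fold change (horizontal axis) with its standard error for the members tested in wild-type MEF, in lung and between genotypes. Copg2 and Rtl1 in wild-type MEF (red) passed the threshold at -4.02 and -3.01, and no other member did in these comparisons.

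Between tissues, the same 2 genes and 3 more were lower in vehicle lung than in untreated wild-type MEF. Copg2 was 2975 and 2928 CPM in MEF and 214.2 and 301.6 CPM in lung, a log2 difference of -3.78 ± 0.28 (edgeR adjusted p = 3.2e-12). Rtl1 had 338 counts in MEF and 2 in lung, so the level in MEF was 111.6 times that in lung by the counts (exact 95% interval 30.66 to 925.3, edgeR adjusted p = 3.4e-12). H19 had 41 counts in MEF and 0 in lung, where a count of 0 allows up to 13.8 CPM over the group. At that bound H19 was 9.02-fold lower in lung, and the exact 95% lower limit was 7.01-fold (edgeR adjusted p = 4.3e-05). Plagl1 was 131.2 and 140.6 CPM in MEF and 24.91 and 0 CPM in lung, and the log2 difference was -2.59 ± 0.67 (edgeR adjusted p = 0.0027). Gnas was 145.8 and 156.3 CPM against 49.81 and 60.32 CPM, and the log2 difference was -1.62 ± 0.55 (edgeR adjusted p = 0.0209). No value of these 5 in lung reached those in MEF, but they were selected by their calls, so nothing further is drawn from that.

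On the opposite strands, Gm26906 had 133 counts in MEF and 2 in vehicle lung, a level 43.91 times higher by the counts (exact 95% interval 11.92 to 366.4, edgeR adjusted p = 9e-08). Gm26906 passed the filter through MEF, where it is high, so the filter bears on its direction. Gm20721 was lower in lung by a log2 difference of -0.87 ± 0.28 (edgeR adjusted p = 0.0145), with 4150 and 5654 counts in MEF and 3630 and 312 in lung. The Gm20721 call was lost under 3 of 10 alternatives, with all reads as library size (-0.44), without the filter (-1.09) and with all 10 libraries in one fit (-1.15), and without vehicle lung replicate 1 that of Gm26906 missed the threshold (adjusted p = 0.0538, range over the alternatives 1.8e-10 to 0.0538). The other 3 members passed the filter without passing the test. Mest was 94.79 and 57.3 CPM in MEF and 159.4 and 60.32 CPM in lung (log2 difference 0.90 ± 0.52, edgeR adjusted p = 0.187). Zrsr1 and Nnat had log2 differences of 0.53 ± 0.54 and -0.25 ± 0.50 (edgeR adjusted p = 0.465 and 0.737).

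Between tissues 8 members were tested and 5 called, all lower in lung, where 38.2% of 1852 genes were called and 19.1% were called lower. H19, Rtl1, Plagl1 and Gnas had 0, 2, 5 and 11 counts in vehicle lung. They passed the filter through MEF, where they are high. The filter thus bears on their direction, and nothing is drawn from the count. Copg2 and Rtl1 were called under all 10 alternatives, while Gnas lost its call under 5, Plagl1 under 3 and H19 under 1. Without vehicle lung replicate 1, the deeper one, 2 members were called, and without untreated MEF replicate 2, 3. DESeq2 called 3. Fibroblast and lung epithelial marker sums, given above, differ between these tissues, and their part in the result was not tested.

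The effect of CBL0137 on Copg2 differed between MEF and lung. The tissue-by-treatment term of edgeR was 4.51 ± 0.52 on the log2 scale (adjusted p = 0.0015), and it kept its call under all 14 alternatives, with values from 4.10 to 4.97. It was the only one of 9 tested members called, at a background of 0.276% of 2899 genes. Untreated levels entered this term, since Copg2 was 2951 ± 33.5 CPM (SD, n = 2) in untreated MEF and 257.9 ± 61.8 CPM (SD, n = 2) in vehicle lung, and treated MEF were at 204.1 ± 67 CPM (SD, n = 2). For Rtl1 the term was 3.59 ± 1.18 (edgeR adjusted p = 0.337), with at most 6 counts in any lung library, and -0.44 without treated lung replicate 2.

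The share of the pair's counts under Copg2 moved with these levels. Wild-type MEF had 96.91% and 98.08% before treatment and 85% and 76.79% after it. In vehicle lung it was 57.33% and 83.33%, the second on 6 counts. In treated lung it was 74.44% and 55.77%. Trp53-/- MEF had 97.91% untreated and 95.19% treated. Mest by itself lay between 25.99 and 94.79 CPM in MEF, while Copg2 ran from 156.8 to 2975 CPM there.

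**Figure D4:**
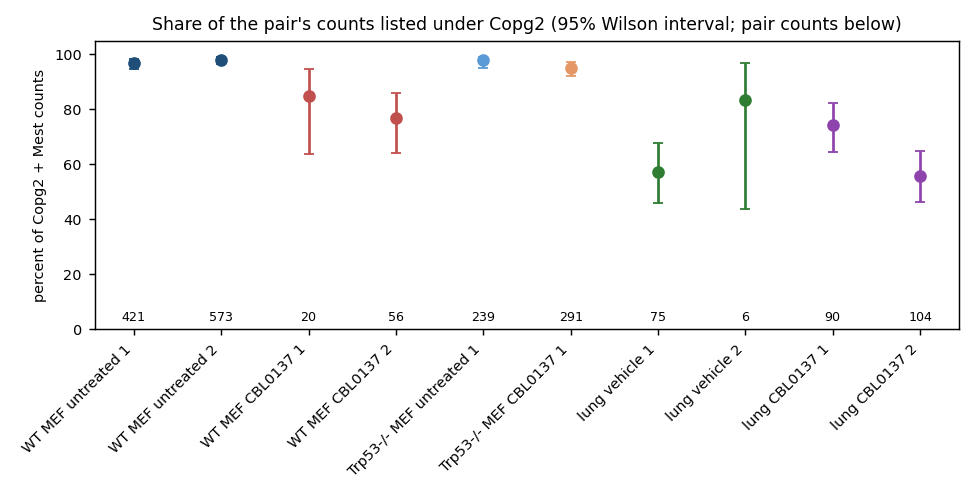
Percent of the counts of Copg2 and Mest that were listed under Copg2 (vertical axis, from 0) in each library, with 95% Wilson intervals and the pair's counts printed along the bottom. The 2 untreated wild-type and both Trp53-/- libraries lie above 95%, and the treated wild-type and lung libraries lie between 55.77% and 85%.

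Loss of Trp53 could be compared only with 1 library per treatment. Additively over both treatments, 0 of 9 tested members were called by edgeR, against 0.868% of 2188 genes, and DESeq2 called 0. Of the 9, 2 had an unadjusted p below 0.05, beside 18.65% of all genes, so nothing is drawn from that count. Those 2 were Plagl1 and Nap1l5. Plagl1 was 249.4 CPM untreated and 187.5 CPM treated in Trp53-/- MEF, above each wild-type library, with a log2 difference of 1.07 ± 0.35 (edgeR adjusted p = 0.162, range over the alternatives 0.122 to 0.87). Nap1l5 had 87.01 and 90.96 CPM in Trp53-/- MEF. In wild-type MEF it had 1 and 0 counts untreated, and 88.77 and 29.17 CPM (6 and 8 counts) treated. The untreated Trp53-/- level of Nap1l5 was 28.64 times the wild-type one by the counts (exact 95% interval 4.41 to 1206), and the additive log2 difference was 2.09 ± 0.78 (edgeR adjusted p = 0.206). It was called with all 10 libraries in one fit (adjusted p = 0.026, range over the alternatives 0.026 to 0.617).

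Copg2 was 1357 CPM in untreated and 514.2 CPM in treated Trp53-/- MEF. The treated level was lower by 2.64 times (exact 95% interval 2.21 to 3.15, 1 library each), and the untreated level was 2.17 times below that of wild-type MEF. Rtl1 was 1038 CPM untreated, beside 1013 and 1037 CPM in wild-type MEF, and 311.9 CPM treated, 3.33 times lower (exact 95% interval 2.68 to 4.13). Gm26906 was 313.3 CPM untreated and 92.81 CPM treated, lower by 3.38 times (exact 95% interval 2.25 to 5.06). H19 was 40.61 and 11.14 CPM on 7 and 6 counts. Over these libraries the additive genotype term was 0.27 ± 0.53 for Copg2 and 0.63 ± 0.31 for Rtl1 (edgeR adjusted p = 0.824 and 0.317). With untreated libraries only the Copg2 difference was -1.19 and that of Rtl1 -0.05, neither called. Without the untreated Trp53-/- library both were called higher, at 1.47 for Copg2 and 1.26 for Rtl1 (edgeR adjusted p = 0.0196 and 0.0353), in a fit that called 222 of 2956 genes.

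No member passed the test of a difference between genotypes in the response to CBL0137, a test with 1 Trp53-/- library per arm in which the spread comes from the wild-type libraries alone. Of 12 members tested, edgeR called 0, against 0.1% of 2995 genes, and DESeq2 called 0. An unadjusted p below 0.05 was found for 4 of the 12, against 10.25% of all genes. For Copg2 the term was 2.66 ± 0.41 (edgeR adjusted p = 0.0724), and for Rtl1 it was 1.30 ± 0.40 (edgeR adjusted p = 0.304). The other 2 were H13 and Nap1l5. H13 passed the filter through treated Trp53-/- MEF alone, where it is high. The filter thus bears on its direction, and nothing is drawn from the count of 4. The Copg2 term was called without the filter (2.78) and without wild-type treated replicate 1 (2.89) or 2 (2.35), and that of Rtl1 without replicate 1 (1.25), with adjusted p of Copg2 from 1.6e-10 to 1 over the alternatives. All-gene calls rose to 222 of 2859 without replicate 1, to 60 of 2766 without replicate 2 and to 19 of 17216 without the filter. H13 had 52 counts in treated Trp53-/- MEF (96.53 CPM) and 1 in untreated, and from 0 to 20.84 CPM in wild-type MEF. Gm26841, opposite H13, did not follow it, at 121.8 CPM untreated and 66.83 CPM treated in Trp53-/- MEF. Ube3a, the ubiquitin ligase gene of Angelman syndrome, had 25 counts (46.41 CPM) in treated and 0 in untreated Trp53-/- MEF, and from 5.21 to 59.18 CPM in wild-type MEF.

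The remaining values by library are as follows. Igf2r was at 51.04 and 52.09 CPM in wild-type MEF without CBL0137, 14.8 and 47.39 CPM with it, 40.61 and 3.71 CPM in untreated and treated Trp53-/- MEF, and 14.94, 60.32, 22.09 and 16.4 CPM in lung, where 60.32 CPM is 1 count. Cdkn1c, a cell-cycle inhibitor that restrains fetal growth, had 26 counts in all, with 11 in treated Trp53-/- MEF and 0 to 5 in any other library. Grb10, an adaptor that restrains insulin signalling, had 19, with 0 to 4 per library. Peg3, a zinc-finger gene, had 14, with 0 to 4 per library. Commd1 was at 29.17 and 31.25 CPM in wild-type MEF without CBL0137, 14.8 and 72.91 CPM with it, and 23.2 and 40.84 CPM in untreated and treated Trp53-/- MEF. Zrsr1 had 81.21 and 113.2 CPM in untreated and treated Trp53-/- MEF and 99.62, 120.6, 77.33 and 110.7 CPM in lung. Nap1l5 in lung had 2, 0, 4 and 3 counts, H13 6, 0, 2 and 12, and Ube3a 1, 0, 1 and 4.

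Per kb of exon, the order in untreated wild-type MEF was Copg2 (576.3 CPM per kb), Rtl1 (161.2), Nnat (63.51), H19 (51.45), Mest (19.28), Plagl1 (17.39), Zrsr1 (15.07) and Gnas (13.5). The 2 libraries of Nnat and H19 overlapped, as did those of Mest and Plagl1 and those of Zrsr1 and Gnas. In vehicle lung the order was Copg2 (50.36 CPM per kb), Nnat (46.45), Mest (27.85), Zrsr1 (24.52) and Commd1 (14.31), and all neighbours except Zrsr1 and Commd1 overlapped.

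A second list of 49 other imprinted genes, 44 with a row, was read in the same fits. In wild-type MEF 4 were tested and in lung 6, with 0 called by edgeR in either, and 2 and 0 at an unadjusted p below 0.05. Over all genes, 28.91% in wild-type MEF and 3.11% in lung had an unadjusted p below 0.05. Between tissues 3 of 5 were called, all higher in lung, where 38.2% of all genes were called and 19.1% called higher. Ppp1r9a and Xist passed the filter through lung, where they are high. The filter thus bears on their direction, and nothing is drawn from that count. Ppp1r9a, a neuronal actin-binding protein, had 1 and 0 counts in MEF and 15 and 2 in lung. Xist, the RNA that silences an X chromosome, had 0 and 26.05 CPM in MEF and 458.3 and 603.2 CPM in lung (log2 difference 4.84 ± 0.58, edgeR adjusted p = 9.8e-08). Tsix, its antisense partner, had 1320 and 1240 CPM in MEF and 2979 and 2835 CPM in lung (log2 difference 1.07 ± 0.21, edgeR adjusted p = 0.00017). Between genotypes 1 of 4 was called (0.868% of all genes), Tsix, which had 0 and 1 counts in Trp53-/- MEF against 1320, 1240, 1376 and 1024 CPM in wild-type MEF (edgeR adjusted p = 2.4e-05). Tsix passed that filter through wild-type MEF, where it is high, so the filter bears on its direction. The untreated wild-type level of Tsix was at least 73.2-fold that in untreated Trp53-/- MEF, where a count of 0 allows up to 17.4 CPM. Expression of Xist and Tsix depends on sex, which is not given for the MEF, and its part in the result was not tested.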

How the data were processed

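The authors deposited 1 file of counts per library, whole numbers of reads per gene without normalization, and the submitters' processing notes name TopHat2 2.0.9, HTSeq (no version) and GRCm38/mm10. The strand setting, annotation release and sequence filters are not given in the sources used here. Rows naming no gene (98.84% to 99.21% of reads) were left out of library sizes and tests. Overlaps, lengths and positions came from GENCODE M21 (GRCm38), which held 94.91% of the identifiers, and sequences from RefSeq (GRCm38.p6).

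The quasi-likelihood test of edgeR 4.0.16 (R 4.3.3) was run on all genes kept by filterByExpr (minimum count 10, minimum total 15), with TMM scaling, and p-values were adjusted over all genes by the Benjamini-Hochberg method (threshold 0.05). The scripts were tested on simulated data. Standard errors are the fold change divided by the root of F. Groups came from the sample labels. Alternatives were DESeq2 1.42.0, no TMM, upper quartile, all reads as library size, no filter, all 10 libraries in one fit, untreated libraries only for the genotype, and each library left out. Ratios of counts have exact 95% intervals and a count of 0 is bounded by 3 counts over the group, which cover counting error only. Genes with at least 10 counts are given by library. The members and lists were chosen with earlier results of these data known. The methods call the replicates biological, without saying how the MEF replicates were obtained, and p-values measure the spread between these samples. Replicates differed by more than counting noise and no 2 files were identical. An exact permutation of 2 against 2 libraries cannot go below p = 0.3333. Tables and figures were made with Python 3.11.15, pandas 2.3.3, SciPy 1.17.1 and matplotlib 3.10.9.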

Additional observations from a re-analysis of the deposited data

Results flagged for a closer look

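The response of Copg2 to CBL0137 differed between wild-type MEF and lung by the test of the difference itself, with a tissue-by-treatment term of 4.51 on the log2 scale (edgeR adjusted p = 0.0015, 4.3e-09 to 0.0319 over the alternatives). Copg2 was lower in both treated MEF libraries than in both untreated ones, and its treated and vehicle lung libraries overlapped. No group had the 4 samples needed to look for a single library that stands apart.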

How the results depend on the processing

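No paired analysis was possible because the labels give the samples no replicate numbers. Of 320 single-gene values under the alternatives, 282 kept their direction and side of the threshold, 17 lost the call, 12 gained it and 9 changed sign. Members called in wild-type MEF were 2, and 0 to 3 with 1 library left out. In lung they were 0 under every alternative. Between tissues they were 5, with 3 by DESeq2 and 2 to 5 with 1 library left out. For the genotype they were 0, with 1 (Nap1l5) in the fit of all 10 libraries and 0 to 2 with 1 library left out. For genotype by treatment they were 0, with 1 (Copg2) without the filter and 0 to 2 with 1 library left out. For tissue by treatment they were 1, and 1 to 2 with 1 library left out. The genotype difference with untreated libraries only was -1.19 for Copg2 and -0.0495 for Rtl1, and with 1 library left out it ran from -1.16 to 1.47 and from -0.0190 to 1.26. With all reads as library size the tissue difference of Nnat was 0.0242, not -0.25. With 1 library left out, Commd1 in lung ran from -1.02 to 0.55, Mest between tissues from -0.46 to 1.16 and Rtl1 by tissue and treatment from -0.44 to 7.23. Where a group was left with 1 library, it was assumed to vary like the others. The cause of these changes was not tested.

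All reads as library size moved the median log2 difference of all genes to 0.21 in wild-type MEF (0.01 with TMM) and to 0.29 between tissues (-0.03 with TMM), and higher calls from 49.66% to 64.14% and from 49.93% to 67.33% of calls. Calls over all genes were 149 in wild-type MEF and 57 by DESeq2, 707 and 307 between tissues, 19 and 54 for the genotype, and 3 and 1 for genotype by treatment. Depth limited the second vehicle lung library most, where 3 counts are 181 CPM.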
